A study of Mus musculus with 6 samples.

Results

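The circadian clock genes examined here were 10 genes of the core molecular clock, *Arntl*, *Clock*, *Per1*, *Per2*, *Per3*, *Cry1*, *Cry2*, *Nr1d1*, *Nr1d2* and *Dbp*. They were chosen by gene symbol, and all 10 were among the 16300 genes of the deposited RNA-seq table. RNA was measured in 6 libraries of mouse granulosa cells (GCs), the hormone-producing somatic cells of the follicle. The cells came from wild-type C57BL/6J females aged 8 to 9 weeks, were collected on the day of estrus and were cultured for 48 h with 10% fetal bovine serum. All of them then had 4 h without serum, after which 3 libraries were made from cells kept in medium (control) and 3 from cells given 25 nM dihydrotestosterone (DHT) for 24 h. DHT activates the androgen receptor and is not a substrate for aromatase. Each library pooled the GCs of 5 mice, and the labels describe the extracted material as whole ovary.

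The clock is a feedback loop of transcription. ARNTL (also called BMAL1) and CLOCK form a heterodimer that binds E-box sequences and activates the *Per*, *Cry*, *Nr1d1*, *Nr1d2* and *Dbp* genes. PER and CRY proteins then repress ARNTL and CLOCK, while NR1D1 and NR1D2 (REV-ERB alpha and beta) repress *Arntl* and compete with the ROR receptors, which activate it. In a cycling tissue, *Arntl* peaks at the opposite time of day from *Nr1d1*, *Dbp* and the *Per* genes, and the clock of GCs is known to take part in the timing of ovulation and steroid synthesis. The comparison asked whether DHT moved these genes, and whether genes that peak at opposite times moved in opposite directions, as a shift of phase can move them. Cells were harvested after a single length of treatment. The clock time of harvest, and whether the 6 libraries shared it, are not given in the sources used here.

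Of the 10 clock genes, 3 rose with DHT, *Nr1d1* by 1.49-fold, *Arntl* by 1.31-fold and *Cry1* by 1.18-fold, and 0 fell. The number that rose was 0 without limma's intensity trend, 1 with the replicate block, 1 without control replicate 2 or DHT replicate 2, and 5 without control replicate 3. A call needed an adjusted p no larger than 0.05 by limma, with the Benjamini-Hochberg adjustment made over 16292 genes. Among all genes tested, 6.52% were called higher and 4.66% lower. With an absolute log2 fold change above 1 as a second condition, 0 of the 10 were called, where 0.908% of all genes were called higher and 0.399% lower. The median log2 fold change of the 10 genes was 0.32, beside -0.005 over all genes tested. All 3 DHT libraries were above all 3 control libraries in 6 of the 10 genes, and this held for 15.9% of all genes. They were all below in 1 gene, *Per2*, where the share over all genes was 14.7%. The groups overlapped in the remaining 3, *Clock*, *Nr1d2* and *Per1*. An unadjusted p of at most 0.05 was reached by 7 of the 10 genes, all higher, where 13.4% of all genes reached it higher, 11.8% lower and 25.2% in either direction.

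**Figure D1:**
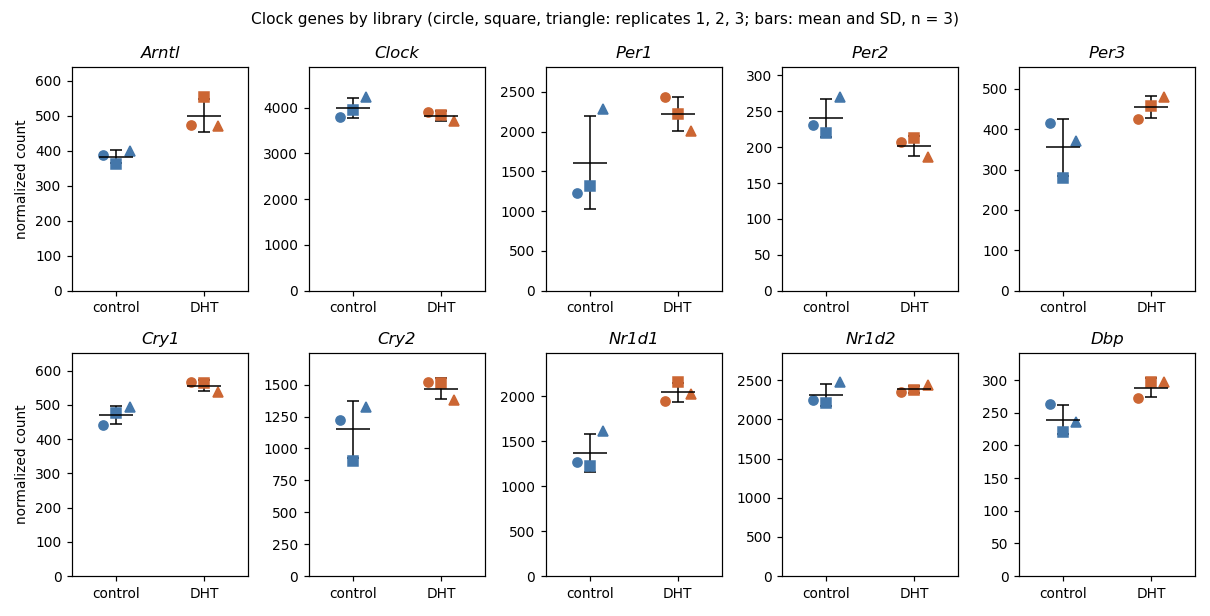
Normalized counts (reads divided by the library's size factor, y axes from 0) of the 10 clock genes in 3 control and 3 DHT libraries, with the mean and SD of each group (n = 3). The DHT points lie above all control points for *Arntl*, *Per3*, *Cry1*, *Cry2*, *Nr1d1* and *Dbp*, below them for *Per2*, and among them for *Clock*, *Per1* and *Nr1d2*.

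The libraries held between 36111177 and 41928585 reads on genes. Each control library was compared with the DHT mean and with the mean of the other 2 controls. The DHT libraries were not compared in this way. Control replicate 3 lay nearer to the DHT mean than to the mean of the other 2 controls in 44.8% of all genes, against 36.8% for control replicate 1 and 38.2% for control replicate 2. Among the clock genes this was so for 4 of 10 in control replicate 3 (*Per1*, *Cry2*, *Nr1d1* and *Nr1d2*), 3 in control replicate 1 and 1 in control replicate 2. By extremes a different library led. Control replicate 1 was the lowest of the 6 libraries in 20.24% of all genes and the highest in 21.08%. Control replicate 3 was so in 15.96% and 17.86%. Values without control replicate 3 are given beside several of the genes it touches. The summed level of 11 granulosa markers was 145031 to 162594 normalized counts in control and 129532 to 144414 in DHT. Of these markers 1 rose, *Hsd17b1* (log2 fold change 0.48, adjusted p 0.0044 by limma), and 3 fell, *Inha* (-0.61, 0.0016), *Esr2* (-0.36, 0.0015) and *Foxl2* (-0.15, 0.049), of which *Foxl2* kept its call under 7 of 16 alternatives and lost it without any library but control replicate 3 (adjusted p 0.097 to 0.14). The markers of stroma (4 genes, 1528 to 1696 against 1206 to 1581), immune cells (3 genes, 372 to 453 against 300.0 to 533), endothelium (3 genes, 101 to 147 against 112 to 169), oocyte (3 genes, 151 to 501 against 30.5 to 337) and surface epithelium (3 genes, 427 to 677 against 312 to 656) were low, and 0 of them was called. All 4 stroma markers had negative log2 fold changes, from -1.05 to -0.13, and 1 was called lower without control replicate 3, while 1 surface epithelium marker was called higher without DHT replicate 1. Their part in the clock gene values was not tested. The theca markers fixed for the check, *Cyp17a1* and *Insl3*, were not analysed here. In bulk samples like these, fewer cells of a type and less RNA per cell cannot be told apart.

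The promoters of the clock genes carry the short elements through which the loop acts. Windows of 250 bases before the transcription start (RefSeq, mouse build GRCm38.p6) were matched for 9 of the 10 genes, all but *Per2*, with 13 windows in all. *Clock*, *Arntl* and *Per1* had several windows each, and those of *Arntl* share most of their bases, so the windows are not independent. The searched motifs of the clock, read on both strands, were the E-box CACGTG, its variant CACGTT, the D-box TTATGNAA bound by DBP and its repressor NFIL3, and the core TAGGTCA of the element bound by ROR and REV-ERB receptors. The windows of *Cry1*, *Nr1d1*, *Per1* and *Per3* are shown as examples that between them hold the E-box, its variant and the D-box, with the matched letters in capitals. In the *Cry1* and *Nr1d1* windows the letters AACGTG are CACGTT read on the other strand. All are written 5′ to 3′ along the gene.
Cry1, chr10:85185055-85185304, minus strand: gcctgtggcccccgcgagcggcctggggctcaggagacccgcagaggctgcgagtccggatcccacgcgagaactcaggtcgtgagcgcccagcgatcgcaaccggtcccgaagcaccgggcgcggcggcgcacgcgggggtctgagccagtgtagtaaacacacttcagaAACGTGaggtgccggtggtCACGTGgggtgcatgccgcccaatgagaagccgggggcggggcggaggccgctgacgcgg
Nr1d1, chr11:98775378-98775627, minus strand: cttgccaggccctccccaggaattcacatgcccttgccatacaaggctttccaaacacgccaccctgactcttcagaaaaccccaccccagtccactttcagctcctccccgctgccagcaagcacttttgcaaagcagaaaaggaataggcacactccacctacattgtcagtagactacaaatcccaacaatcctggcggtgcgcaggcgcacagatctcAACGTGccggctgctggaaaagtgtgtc
Per1, chr11:69098699-69098948, plus strand: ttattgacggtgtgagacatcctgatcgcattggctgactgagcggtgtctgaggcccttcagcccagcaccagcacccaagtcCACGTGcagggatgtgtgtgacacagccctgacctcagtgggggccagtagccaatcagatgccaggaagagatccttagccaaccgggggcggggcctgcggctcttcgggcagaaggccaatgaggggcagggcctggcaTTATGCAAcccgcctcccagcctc
Per3, chr4:151044666-151044915, minus strand: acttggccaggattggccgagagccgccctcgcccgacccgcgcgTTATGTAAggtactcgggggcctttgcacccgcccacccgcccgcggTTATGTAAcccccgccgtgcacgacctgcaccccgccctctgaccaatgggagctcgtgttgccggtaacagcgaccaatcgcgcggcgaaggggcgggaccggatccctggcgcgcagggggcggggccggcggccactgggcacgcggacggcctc

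The E-box stood 60 bases before the start of *Cry1* and 166 bases before that of *Per1*, so in 2 of the 13 windows, beside 6.021% of the 32851 windows of all genes. The CACGTT variant stood 79 bases before the start of *Cry1*, 28 before that of *Nr1d1* and 166 before that of *Cry2*, in 3 of 13 windows, beside 3.848% of all. The D-box was found in 2 of 13, at 24 bases before the start of *Per1* and at 205 and 158 bases before that of *Per3*, beside 3.068% of all. The ROR and REV-ERB core (2.234% of all windows), the cAMP element TGACGTCA (1.546%) and the half-site AGAACA of steroid receptors such as the androgen receptor (16.085%) were in 0 of the 13. The other *Per1* window, chr11:69099902-69100151, held no match. An absent match says only that these letters are not in this window.

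Of the activators, *Arntl* (ENSMUSG00000055116, chr7:113207465-113314126, plus strand, GRCm38) rose and its partner *Clock* did not pass the test. *Arntl* was at 388, 361 and 398 normalized counts in control replicates 1, 2 and 3 and at 474, 554 and 470 in DHT replicates 1, 2 and 3. Every DHT library exceeded every control library, and DHT replicate 2 was the highest. The means were 383 ± 19.0 and 499 ± 47.5 (SD, n = 3 each), a log2 fold change of 0.38 (standard error 0.09, 95% interval 0.19 to 0.57, adjusted p 0.022 by limma). The call was lost under 4 of the 16 alternatives tried. These were without control replicate 2 (0.073), DHT replicate 2 (0.092) or the intensity trend (0.070) and with the replicate block (0.083), all adjusted p by limma. Over the 16 alternatives the adjusted p ran from 0.0075 to 0.092.

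*Clock* (ENSMUSG00000029238, chr5:76209868-76304792, minus strand) encodes the partner of ARNTL, and its transcript cycles little in many tissues. It stood at 3801, 3940 and 4239 normalized counts in control and at 3913, 3839 and 3702 in DHT. The groups overlapped, with control replicate 3 the highest. The change was -0.06 on the log2 scale (95% interval -0.17 to 0.04, adjusted p 0.46 by limma), and -0.02 without control replicate 3, -0.10 without control replicate 1 and -0.04 without DHT replicate 3. *Npas2*, which can replace CLOCK in the heterodimer and is given here as a gene of the *Arntl* arm described later, was between 16.7 and 34.4 normalized counts in all 6 libraries, with a log2 fold change of 0.02 (95% interval -0.67 to 0.71).

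The repressors of the *Per* family, which carry CRY proteins into the nucleus, gave different values from one another, and 0 of the 3 passed the test. *Per1* (ENSMUSG00000020893, chr11:69095217-69109960, plus strand), which responds quickly to hormones and cAMP, was at 1235, 1319 and 2281 normalized counts in control and at 2441, 2224 and 2008 in DHT. Control replicate 3 was within the DHT range and the other 2 controls were far below it. Its log2 fold change was 0.52 (standard error 0.20, 95% interval 0.07 to 0.97, adjusted p 0.14 by limma). Without control replicate 3 it was 0.80, with an adjusted p of 0.00034 by limma, and the adjusted p over the alternatives reached up to 0.42.

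*Per2* (ENSMUSG00000055866, chr1:91415982-91459324, minus strand) was at 231, 220 and 271 normalized counts in control and at 207, 213 and 186 in DHT. It was the only clock gene with every DHT library below every control library, though DHT replicate 2 and control replicate 2 lay close together. The difference was -0.25 on the log2 scale (standard error 0.11, 95% interval -0.50 to 0.004), and the adjusted p was 0.21 by limma. It passed the threshold under 0 of the 16 alternatives, with adjusted p from 0.18 to 0.45. Without control replicate 3, the highest library, the difference was -0.16 (adjusted p 0.41 by limma). *Per3* (ENSMUSG00000028957, chr4:151003652-151044665, minus strand) was at 417, 279 and 371 normalized counts in control and at 427, 457 and 481 in DHT. Control replicate 2 was the lowest library, and control replicate 1 came close to DHT replicate 1. Its log2 fold change was 0.37 (standard error 0.14, adjusted p 0.12 by limma). Without control replicate 1 it was 0.50 with an adjusted p of 0.047 by limma, and without control replicate 2 it was 0.21 with an adjusted p of 0.24. The adjusted p over the alternatives reached up to 0.31.

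The cryptochromes are the main repressors of ARNTL and CLOCK. *Cry1* (ENSMUSG00000020038, chr10:85131700-85185064, minus strand) was at 442, 475 and 493 normalized counts in control and at 567, 564 and 539 in DHT. The groups did not overlap, and the DHT libraries were close together. On the log2 scale the rise was 0.24 (standard error 0.07, 95% interval 0.09 to 0.40). Its adjusted p of 0.0497 by limma lay just inside the threshold, and the call was kept under 5 of 16 alternatives, with adjusted p from 0.037 to 0.17. Leaving out any library other than control replicate 3 ended it (control replicate 1, 0.13, control replicate 2, 0.10, DHT replicates 1, 2 and 3, 0.14, 0.17 and 0.10), as did edgeR (0.051) and DESeq2 (0.093). *Cry2* (ENSMUSG00000068742, chr2:92403646-92434043, minus strand) was at 1225, 900.5 and 1325 normalized counts in control and at 1521, 1512 and 1377 in DHT. The groups did not overlap, but control replicate 2 was far below the other controls. The difference was 0.37 on the log2 scale (standard error 0.12), and the adjusted p was 0.095 by limma. The gene passed by DESeq2 (adjusted p 0.016) and without control replicate 3 (adjusted p 0.024 by limma), and its adjusted p over the alternatives reached up to 0.24. Without control replicate 2 the difference was 0.20 (adjusted p 0.11 by limma).

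Among the nuclear receptors of the stabilising loop, *Nr1d1* rose and *Nr1d2* overlapped between groups. With all libraries *Nr1d1* had the largest log2 fold change of the 10 clock genes, and without control replicate 3 that of *Per1* was larger (0.80 against 0.71). *Nr1d1* (ENSMUSG00000020889, chr11:98767932-98775333, minus strand), which encodes the haem-binding repressor REV-ERB alpha, was at 1265, 1222 and 1616 normalized counts in control and at 1945, 2157 and 2020 in DHT. All DHT libraries were above all controls, and control replicate 3 was the nearest of the controls. The means were 1368 ± 216 and 2041 ± 107 (SD, n = 3 each), a log2 fold change of 0.59 (standard error 0.10, 95% interval 0.37 to 0.81, adjusted p 0.0053 by limma). Without control replicate 3 the change was 0.71, and over the alternatives the adjusted p ran from 5.5e-08 to 0.061. The exons of *Nr1d1* share 263 bases with *Thra* on the other strand, and the strand setting of the counting is not given in the sources used here, so reads of *Thra* there could have been counted. *Arntl* (33 bases), *Cry2* (295 bases) and *Dbp* (539 bases, with *Sphk2*) have such overlaps too.

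*Nr1d2* (ENSMUSG00000021775, chr14:18204054-18239127, minus strand), the paralogue REV-ERB beta, was at 2249, 2213 and 2477 normalized counts in control and at 2352, 2373 and 2436 in DHT. Control replicate 3 was the highest of the 6. Its change was 0.05 on the log2 scale (95% interval -0.07 to 0.16, adjusted p 0.61 by limma). Without control replicate 3 it was 0.10 (adjusted p 0.19 by limma), without control replicate 1 it was 0.03 and without control replicate 2 it was 0.02. The upper bound of this interval lay below the lower bound for *Nr1d1*, though the difference between the paralogues was not itself tested.

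*Dbp* (ENSMUSG00000059824, chr7:45705088-45710203, plus strand) is a transcription factor that carries the rhythm to output genes through D-boxes. It was at 263, 220 and 235 normalized counts in control and at 272, 297 and 297 in DHT. The groups did not overlap, but control replicate 1 and DHT replicate 1 were close. Its log2 fold change was 0.27 (standard error 0.10, 95% interval 0.05 to 0.49), the adjusted p was 0.12 by limma, and it passed under 0 of the 16 alternatives.

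**Figure D2:**
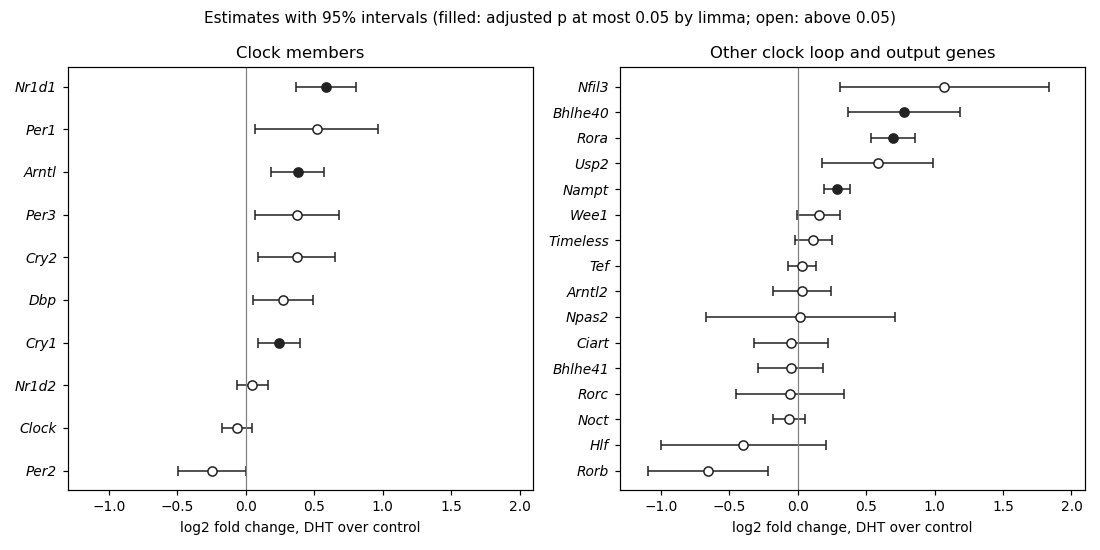
Log2 fold changes (x axis, DHT over control) with 95% intervals from limma for the 10 clock genes (left) and for 16 other genes of the loop and its output (right). Filled points had an adjusted p of at most 0.05. Among the clock genes these are *Nr1d1*, *Arntl* and *Cry1*, and the interval of *Per2* ends next to 0.

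The other genes of the pathway were counted from 3 lists, 25 genes in all, of which 3 rose and 0 fell, with a median log2 fold change of 0.04, beside 6.52% higher and 4.66% lower among all genes. Among 12 further transcription factors and repressors of the loop, 2 rose, 0 fell and the median was 0.03. *Rora*, the receptor that activates *Arntl* through the element to which REV-ERB binds, was at 1239, 1058 and 1182 normalized counts in control and at 1737, 1972 and 1933 in DHT. The groups were far apart in every library, including control replicate 3. The rise was 0.70 on the log2 scale (standard error 0.07, adjusted p 0.00045 by limma), and *Rora* was called under all 16 alternatives. *Bhlhe40* (DEC1), a repressor that competes at E-boxes, was at 2064, 2513 and 3847 in control and at 4734, 4668 and 4561 in DHT. Its control libraries were spread widely and its DHT libraries were nearly equal. Its log2 fold change was 0.78 (adjusted p 0.025 by limma). Without control replicate 3 it was 1.03 (adjusted p 8.3e-05 by limma). The call was lost under 6 of the 16 alternatives, which were without control replicate 2 (0.085), DHT replicate 1 (0.069), DHT replicate 2 (0.080) or DHT replicate 3 (0.086) and without the intensity trend (0.13), all adjusted p by limma, and by DESeq2 (adjusted p 0.059).

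A pair of factors that did not pass were chosen after their values were seen. *Nfil3*, the repressor at D-boxes, was at 452, 508 and 1308 normalized counts in control and at 1658, 1374 and 1229 in DHT, so control replicate 3 lay within the DHT range. Its log2 fold change was 1.07 (adjusted p 0.079 by limma) with all libraries and 1.55 (adjusted p 9.0e-05 by limma) without control replicate 3, and the adjusted p reached up to 0.29 over the alternatives. *Rorb*, a second ROR receptor, was at 186, 164 and 209 in control and at 160, 94.9 and 107 in DHT, all below the controls. The difference was -0.66 on the log2 scale (adjusted p 0.064 by limma). It passed by DESeq2 (adjusted p 0.023) and without DHT replicate 1 (adjusted p 0.011 by limma), with adjusted p up to 0.20 over the alternatives.

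Of 9 kinases and ubiquitin ligases that set the stability of PER and CRY proteins, 0 passed the test by limma, edgeR or DESeq2. Among all genes limma called 6.52% higher and 4.66% lower. An unadjusted p of at most 0.05 by limma was reached by 2 of the 9, a share near the 25.2% of all genes. The log2 fold changes of the 9 genes ran from 0.01 to 0.30. Of 4 clock output genes 1 rose, *Nampt*, the rate-limiting enzyme of NAD salvage, with 2079, 2211 and 2179 normalized counts in control and 2722, 2591 and 2581 in DHT. The libraries of each group were close together. The rise was 0.29 on the log2 scale (standard error 0.04, adjusted p 0.0031 by limma). *Usp2*, a ubiquitin protease, was at 61.3, 83.6 and 75.0 in control and at 125, 117 and 90.3 in DHT, with an adjusted p of 0.071 by limma, and it was also chosen after its values were seen.

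The relations between clock genes within each library, which do not depend on the size factors, are given as values with no test. *Nr1d1* over *Arntl*, whose products stand on opposite sides of the loop, was 3.26, 3.38 and 4.06 in control and 4.11, 3.89 and 4.30 in DHT. The ratio of control replicate 3 lay within the DHT range. *Dbp* over *Arntl* was 0.679, 0.609 and 0.591 in control and 0.574, 0.535 and 0.632 in DHT, and the groups overlapped. *Per2* over *Arntl* was 0.594, 0.609 and 0.679 in control and 0.438, 0.384 and 0.396 in DHT.

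*Per2* was also lower relative to *Nr1d1* and *Per1*, which are E-box genes too. *Per2* over *Nr1d1* was 0.182, 0.180 and 0.167 in control and 0.107, 0.0986 and 0.0921 in DHT. *Per1* over *Per2* was 5.36, 5.99 and 8.43 in control and 11.8, 10.5 and 10.8 in DHT. Neither ratio overlapped between the groups, and control replicate 3 was the control nearest to DHT in both. For *Per2* over *Nr1d1* and over *Arntl* the separation followed from the genes taken singly. *Per2* was lower, and *Nr1d1* and *Arntl* higher, in every DHT library than in every control. Other ratios overlapped. *Nr1d1* over *Dbp* was 4.81 to 6.87 in control and 6.80 to 7.27 in DHT. *Cry2* over *Cry1* was 1.90 to 2.77 in control and 2.56 to 2.68 in DHT.

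The *Arntl* arm (*Arntl*, its partners *Clock* and *Npas2*, and *Cry1*, which peaks later than the other E-box genes) had a mean log2 level of 8.54 in control and 8.68 in DHT. The E-box arm (*Per1*, *Per2*, *Per3*, *Nr1d1*, *Nr1d2* and *Dbp*) had 9.41 and 9.67. Both means were thus higher in DHT, by 0.15 and 0.26. The *Arntl* arm minus the E-box arm was -0.842, -0.619 and -1.15 in control and -0.940, -1.05 and -0.963 in DHT, so every DHT value lay within the control range. The mean difference between groups was -0.11, and it ranged from -0.25 to 0.014 when each library was left out in turn, with the positive value without control replicate 2. Every gene of an arm had the same weight, also the low *Npas2*, whose lowest value (16.7 normalized counts) was in control replicate 3. That library also had the lowest *Arntl* arm (8.45) and set the lower end of the control range. The arm without *Npas2* was not computed, and *Cry2* was in neither arm.

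**Figure D3:**
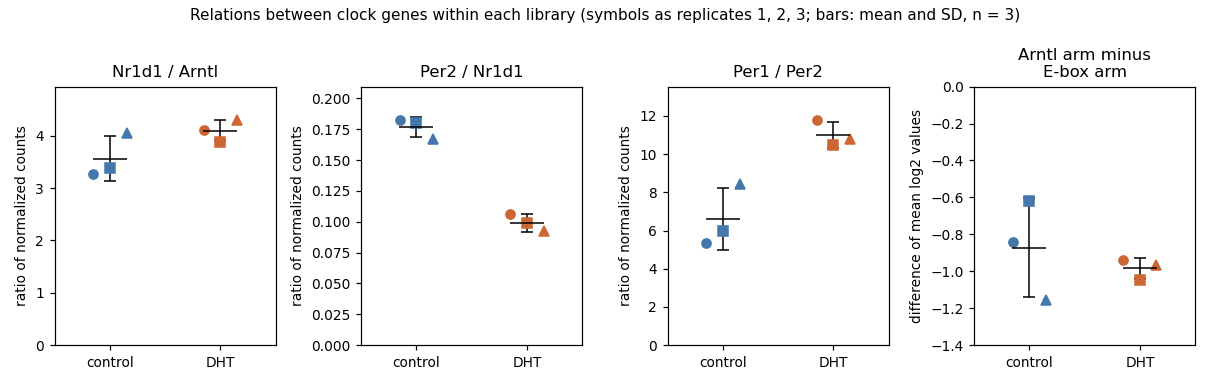
Ratios of normalized counts between clock genes (the 3 left panels, y axes from 0) and the mean log2 level of the *Arntl* arm minus that of the E-box arm (right panel) in each library, with mean and SD (n = 3). *Per2* over *Nr1d1* and *Per1* over *Per2* separate the groups, and for *Per2* over *Nr1d1* this follows from the genes taken singly. The right panel shows every DHT library between the highest control (-0.619) and the lowest (-1.15).

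Immediate early genes, which respond to serum and cAMP, did not place control replicate 3 in 1 way. It was the highest of the 3 controls for *Egr2*, *Junb* and *Nr4a1*, the lowest for *Egr1*, *Fos* and *Fosb*, and between the others for the remaining 3 of the 9 genes. Of these 9 immediate early genes, limma with all libraries called 0 higher and 2 lower, *Egr1* (log2 fold change -0.34, adjusted p 0.0037 by limma) and *Ier2* (-0.16, adjusted p 0.048). By DESeq2 1 was called higher and 1 lower, and by limma without control replicate 2 1 was called higher and 2 lower. *Ier2* kept its call under 8 of 16 alternatives and lost it without any library but control replicate 2 (adjusted p 0.084 to 0.18 by limma). *Nr4a1*, an orphan receptor induced within minutes, was at 1950, 2546 and 10385 normalized counts in control and at 9911, 7263 and 6431 in DHT. *Junb*, an AP-1 subunit, was at 3214, 3553 and 5890 in control and at 5359, 4878 and 4795 in DHT. In both genes, which were chosen after their values were seen, control replicate 3 was above all DHT libraries. Without that library, where 1237 of all 16292 genes were called higher in place of 1063, 3 of the 9 genes were called higher, among them *Nr4a1* (log2 fold change 1.80, adjusted p 0.00025) and *Junb* (0.57, adjusted p 0.00059, both by limma). In the same fit 2 of the 9 genes, not including *Ier2*, were called lower, as were 857 of all genes in place of 760. Of 4 steroid receptor response genes, all had DHT above control without overlap (15.9% of all genes) and 2 rose (6.52% of all genes), *Sgk1* (0.77, adjusted p 0.00012) and *Fkbp5* (0.23, adjusted p 0.028, both by limma). The call of *Fkbp5* was lost under 5 of the 16 alternatives, without control replicate 2 (0.085), DHT replicate 2 (0.11), DHT replicate 3 (0.12) or the intensity trend (0.12) and with the replicate block (0.087), all adjusted p by limma. *Klf9* (0.0070) and *Tsc22d3* (0.048) passed without control replicate 3 (adjusted p by limma), and *Klf9* also passed by DESeq2 (adjusted p 0.019). *Klf9* and *Tsc22d3*, not called with all libraries, were chosen after their values were seen. In *Sgk1* the controls were at 14950, 15784 and 16798 and the DHT libraries at 26137, 25785 and 29070, so control replicate 3 stayed with its group there. What part the high *Nr4a1* and *Junb* values of control replicate 3 had in its values of *Per1*, *Nfil3* and *Bhlhe40* was not tested.

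**Figure D4:**
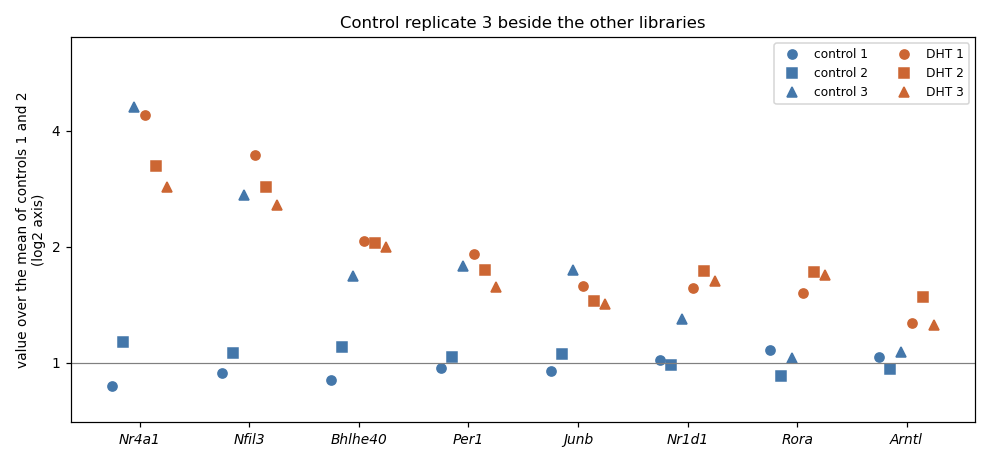
Each library's normalized count divided by the mean of control replicates 1 and 2 (log2 y axis) for 4 clock or loop genes with high values in control replicate 3, for *Nr4a1* and *Junb*, and for *Rora* and *Arntl*. The triangle of control replicate 3 sits among the DHT symbols for *Nfil3* and *Per1*, above them for *Nr4a1* and *Junb*, between the groups for *Bhlhe40* and *Nr1d1*, and with the other controls for *Rora* and *Arntl*.

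The controls were more spread than the DHT libraries in 9 of the 10 clock genes, by the SD of log2 values, with *Arntl* the exception. The same was so for 58.29% of all genes. Control replicate 2 had the lowest level of the 6 libraries in 6 clock genes (*Nr1d1*, *Nr1d2*, *Per3*, *Arntl*, *Dbp* and *Cry2*), where it was the lowest for 15.59% of all genes. Control replicate 1 was the lowest in *Cry1* and *Per1* (20.24% of all genes), and DHT replicate 3 in *Clock* and *Per2* (17.94% of all genes).

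Levels were compared between genes as normalized counts per kb of exonic length (GENCODE M21). The length merged the exons of all annotated transcripts and can exceed that of the transcripts expressed, so the order between genes depends on the annotation. In control GCs the order was *Nr1d1* at 444.5 ± 70.1, *Nr1d2* at 428 ± 26.5, *Clock* at 291 ± 16.3, *Per1* at 286 ± 103, *Cry2* at 182 ± 35.1, *Cry1* at 141 ± 7.67, *Dbp* at 80.1 ± 7.28, *Arntl* at 50.9 ± 2.52, *Per2* at 41.1 ± 4.53 and *Per3* at 37.0 ± 7.31 (SD, n = 3). The libraries of neighbours overlapped for *Nr1d1* and *Nr1d2*, *Clock* and *Per1*, *Cry2* and *Cry1*, and *Per2* and *Per3*. In DHT the order was *Nr1d1* at 663 ± 34.8, *Nr1d2* at 441 ± 8.01, *Per1* at 395 ± 38.5, *Clock* at 278 ± 7.79, *Cry2* at 233 ± 12.8, *Cry1* at 167 ± 4.61, *Dbp* at 96.4 ± 4.80, *Arntl* at 66.4 ± 6.32, *Per3* at 47.4 ± 2.84 and *Per2* at 34.5 ± 2.41. No neighbours overlapped there, *Per1* stood above *Clock*, and *Per3* above *Per2*.

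The genes with the profiles most like those of 3 clock genes were found by the root mean square (RMS) difference of centred log2 values over the 6 libraries, among 11570 genes. For *Arntl* they were *Ppfia3* (0.049), *Bbs1* (0.053) and *Tapbp* (0.056). For *Nr1d1* they were *Utp14b* (0.059), *Gm8550* (0.062) and *4732440D04Rik* (0.071). For *Dbp* they were *Zdhhc1* (0.030), *Dynlt1c* (0.031) and *Rabgap1l* (0.041). Likeness over 6 libraries says nothing of shared control.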

How the data were processed

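Transcripts of 3 control and 3 DHT-treated GC libraries were examined, with groups from the treatment characteristic of the labels, whose other treatment text names DHT for every sample. Using Trimmomatic 0.36, STAR 2.5.2b and featureCounts of Subread 1.5.2, the authors trimmed the reads, aligned them to GRCm38, counted them by gene and deposited, as a normalized signal, gene counts divided by DESeq2 size factors. Every one of these values was a whole multiple of its library's step (tolerance 1e-04), so the whole reads were recovered for 100% of values. The deposited fold changes and p-values of the authors, and a second table holding some of the same genes, were not used.

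The main test was limma 3.58.1 (R 4.3.3) with an intensity trend and no replicate block, run on log2(value + 1) for the 16292 genes whose mean was 10 or more. P-values are two-sided, with Benjamini-Hochberg adjustment, and the pseudocount understates the change of low genes. Permuting 3 libraries against 3 gives an exact p of 0.1 at the least, so permutation p-values were computed for the listed genes but not used for calls. The sources do not say which libraries shared a pool of mice, and p-values measure only the spread between these libraries. In simulated counts for the DHT comparison over 16292 genes, limma recovered 100 of 100 genes changed by 1 and 67 of 100 changed by 0.5 on the log2 scale, with 13 false calls. The simulation gave every gene the same fixed dispersion and changed only genes with a mean of at least 100. Its figures do not describe genes with widely spread controls, such as *Per1* (1611 ± 581 normalized counts, SD, n = 3).

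The alternatives were pseudocounts of 0.5 and 8, quantile normalization, TMM scaling, no filter, a minimum mean of 50, limma without its trend, the replicate block, edgeR 4.0.16 quasi-likelihood and DESeq2 1.42.0 Wald tests on the recovered reads, and each library left out. The members and gene lists were chosen with earlier results of these data known. Of the other lists, genes were named when called (at most 5 in a list), as were the 3 genes outside the lists, with a mean of at least 100, nearest in profile to *Arntl*, *Nr1d1* and *Dbp*. Genes named outside this rule (*Npas2*, *Nfil3*, *Rorb*, *Usp2*, *Nr4a1*, *Junb*, *Egr2*, *Fos*, *Fosb*, *Klf9* and *Tsc22d3*) were chosen after their values were seen, apart from *Npas2*, a gene of the *Arntl* arm. *Zbtb16*, *Cyp19a1*, *Cyp17a1*, *Insl3* and *Adgre1* were listed and not analysed here.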

Additional observations from a re-analysis of the deposited data

How the results depend on the processing

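The log2 fold changes of the 10 clock genes kept their sign under all 16 alternatives. The number of clock genes called higher, 3 as reported, was 0 without the intensity trend (limma, where the number of all genes called fell from 1063 higher and 760 lower to 501 and 303) and 1 with the replicate block (633 and 357 of all genes). It ranged from 1 to 5 when 1 library was left out, with 1 without control replicate 2 (828 and 539 of all genes) or DHT replicate 2 and 5 without control replicate 3 (1237 and 857 of all genes). The number called lower was 0 throughout. *Nr1d1* was called in 15 of the 16, all but the fit without the intensity trend (adjusted p 0.061 by limma), *Arntl* in 12, *Cry1* in 5, *Cry2* in 2, and *Per1* and *Per3* in 1 each. Whether the replicate numbers pair the samples was not settled. Correlations of deviations across genes were 0.0058, 0.067 and -0.24 for a control and a DHT library sharing a number. They ran from -0.19 to 0.23 where the numbers differed. With 3 libraries per group and this spread, such values cannot show which libraries shared a pool of mice. With the replicate block the adjusted p was 0.016 for *Nr1d1*, 0.083 for *Arntl* and 0.15 for *Cry1* (limma). Without DHT replicate 2 or 3 the number of genes called over the whole table was 586 and 384 or 581 and 350, higher and lower. The cause of these differences was not tested. With 3 libraries per group, the spread between libraries and the counting error of each both limit the precision.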
